A study of Mus musculus with 20 samples.

Results

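Expression of the genes for sugar uptake, fructose breakdown, and glucose production was examined in the cecum of mice fed potato starch. The set was named gene by gene and holds 9 genes: the sugar transporters Slc5a1, Slc2a2, and Slc2a5, the enzymes Khk, Fbp1, Pck1, and Pfkfb3, the sugar-responsive transcription factor Mlxipl, and its target Txnip. The count table held 8 of them among 19887 genes, and Slc2a2 was not analysed here. The 20 mice were C57BL/6, and all had eaten the Total Western Diet (TWD), a rodent diet modeled on American nutrient intakes, for 6 weeks from about 3 weeks of age. For the next 3 weeks 5 mice stayed on the TWD (0% RPS) and 5 each received the TWD with 2, 5, or 10% raw potato starch (RPS), an uncooked starch that in part escapes digestion in the small intestine. Because every group ate the TWD, the comparisons are between amounts of RPS on one Western background. The study names male mice for its sequencing of cecal bacteria, and the sources used here do not give the sex for the RNA libraries. Each library came from a section of whole cecum wall of 1 mouse, so fewer cells of a type and less RNA per cell cannot be told apart in these values.

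SGLT1, the product of Slc5a1, carries glucose and galactose into epithelial cells together with sodium, while GLUT5, from Slc2a5, lets fructose in without it. Khk commits fructose to breakdown, Fbp1 and Pck1 run the steps that are particular to making glucose, and Pfkfb3 makes the signal molecule fructose 2,6-bisphosphate, which speeds glycolysis and slows Fbp1. Mlxipl encodes ChREBP, which is activated by sugar phosphates and binds paired E-boxes in its target genes, and Txnip is a classic target that limits glucose uptake. These genes are best known in the small intestine, liver, and kidney, whereas the cecum receives mostly what the small intestine has left.

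The libraries held 14967798 to 42687283 counts. Values are given as CPM, counts relative to library size as scaled by edgeR's TMM method, and 15348 genes passed the filter on low counts, all 8 genes of the set among them. Epithelial and large intestinal markers were abundant in every mouse, with Epcam at 1521 CPM or more and Car1 at 13968 CPM or more. The 12 enterocyte markers listed for the small intestine were mixed. Fabp2 had a mean of 1465 CPM, Apob 213, Slc10a2 111, Alpi 76.2, and Anpep 20.9 CPM, while Fabp6 had 0.925, Sis 0.460, and Lct 0.191 CPM, and Apoc3 lay under the level of 3 counts. The summed levels of several marker lists are given by diet as a description, with no test of a difference between diets. The summed level of 7 smooth muscle markers was 2620 to 6118 CPM with 0% RPS, 3522 to 6155 with 2%, 4481 to 10279 with 5%, and 4348 to 7238 with 10%. The 6 B cell markers together had 4.96 to 203 CPM with 0% RPS, 3.20 to 285 with 2%, 7.40 to 129 with 5%, and 14.3 to 273 with 10%. The 8 goblet cell markers had medians of 11359 CPM with 0% RPS (9082 to 12240) and 7561 CPM with 10% RPS (7173 to 8777), without overlap. The 6 fibroblast markers had 403 to 559 CPM with 0% RPS, 468 to 701 with 2%, 567 to 858 with 5%, and 502 to 788 with 10%. The 9 adipocyte markers had medians of 225 CPM with 0% RPS and 93.6 CPM with 10% RPS, and overlapped widely. They were mixed, since Adipoq, Plin1, Cfd, Lep, and Retn had a minimum of 0 CPM. The minimum was 28.8 CPM for Plin4, 21.4 for Cidec, 13.7 for Fabp4, and 1.64 for Car3. The 8 large intestinal absorptive markers had means of 42442 CPM with 0% RPS and 36270.3 CPM with 10% RPS. The part of these levels in the results was not tested except where a fit with the markers as a covariate is given.

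Promoter sequences are shown for 3 of the genes, because ChREBP acts through E-boxes and Mlxipl and Txnip are both in the set. They are the 250 bases before the RefSeq start of the gene (RefSeq promoters of GRCm38.p6, placed on GRCm39 by exact match), with matches in capitals. The letters searched on both strands were the E-box CACGTG and a pair of E-box-like sites, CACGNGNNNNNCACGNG, a form chosen after others had been tried.

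Txnip, chr3:96465023-96465272, plus strand: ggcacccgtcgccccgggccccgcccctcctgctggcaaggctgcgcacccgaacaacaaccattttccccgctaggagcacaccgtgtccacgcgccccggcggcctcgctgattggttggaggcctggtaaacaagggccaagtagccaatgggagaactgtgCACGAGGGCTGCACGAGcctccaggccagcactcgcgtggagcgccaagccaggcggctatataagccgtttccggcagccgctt

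Mlxipl, chr5:135118494-135118743, plus strand: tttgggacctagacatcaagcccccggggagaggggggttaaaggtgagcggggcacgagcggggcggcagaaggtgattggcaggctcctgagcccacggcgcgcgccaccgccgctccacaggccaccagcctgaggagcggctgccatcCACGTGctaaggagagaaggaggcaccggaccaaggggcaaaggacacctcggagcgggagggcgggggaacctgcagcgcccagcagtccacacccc

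Slc5a1, chr5:33261313-33261562, plus strand: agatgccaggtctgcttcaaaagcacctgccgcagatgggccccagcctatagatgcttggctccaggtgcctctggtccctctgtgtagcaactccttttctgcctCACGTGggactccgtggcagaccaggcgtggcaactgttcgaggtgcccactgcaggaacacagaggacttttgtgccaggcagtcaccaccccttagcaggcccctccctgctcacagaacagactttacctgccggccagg

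In Txnip the capitals mark the paired element, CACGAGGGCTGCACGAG, at positions -85 to -69 from the start, which is the kind of site that ChREBP and its relative MondoA are known to use. Such a pair was present in 0.0457% of all 32851 promoters of this length (15 promoters), and a pair of perfect E-boxes, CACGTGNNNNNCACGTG, in 0 of them. The looser form was chosen after others had been tried, so its share is a description and not a test. In Mlxipl and Slc5a1 the capitals mark a single E-box, at -98 to -93 and -143 to -138. Khk and Pfkfb3 also held a single E-box, which made 4 of the 11 promoters that RefSeq gives for the 9 genes, while 6.02% of all promoters held one. Mlxipl has a second promoter in RefSeq, chr5:135135495-135135744, in which neither form was found. These are matches of letters and do not show that a factor was bound.

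The levels spanned a wide range. Per kilobase of the Ensembl canonical transcript, Txnip had the highest level, 470 ± 62.2 CPM per kb (SD, n = 20). Pck1 followed with 32.3 ± 6.51, Slc5a1 with 18.8 ± 2.28, Khk with 14.97 ± 1.80, and Mlxipl with 8.34 ± 1.31 CPM per kb. The lowest were Pfkfb3 with 2.11 ± 0.591, Fbp1 with 1.31 ± 0.268, and Slc2a5 with 1.24 ± 0.462 CPM per kb. Txnip was above Pck1, Pck1 above Slc5a1, Khk above Mlxipl, and Mlxipl above Pfkfb3 in 20 of 20 mice, and Slc5a1 was above Khk in 19. The order of Khk and Mlxipl rests on the length used, since in CPM Mlxipl had the higher mean (30.3 against 24.8). The canonical transcript of Khk has 1659 bases and all its exons 7397, against 3639 and 7004 for Mlxipl. The order at the bottom was less firm, since Pfkfb3 was above Fbp1 in 17 mice and Fbp1 above Slc2a5 in 13. Thus the glucose carrier SGLT1 had far more transcript per length than the fructose carrier GLUT5 in each mouse. The glucose-producing enzymes stood apart from each other on this scale as well, with Pck1 high and Fbp1 near the bottom.

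**Figure D1:**
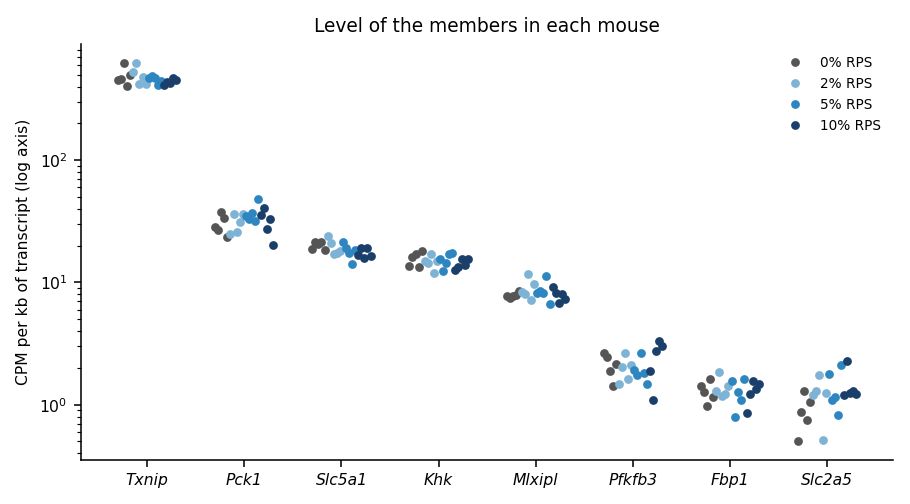
Level of each gene in CPM per kb of transcript on a log axis, with 1 point per mouse and the 4 diets in shades. Txnip sits near 470 CPM per kb in all diets, and Fbp1 and Slc2a5 overlap near 1.3 CPM per kb.

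Genes with related jobs gave context to these levels. Fbp2, the form of fructose bisphosphatase best known from muscle, had 102 CPM per kb in the mean of all mice. G6pc1, which releases free glucose in liver and kidney, was below the filter at 0.0315 CPM per kb, with 0 to 8 counts per mouse. Among the carriers, Slc2a1, which encodes the widespread glucose transporter GLUT1, had 56.7 CPM per kb.

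Whether RPS altered these genes was asked for each dose against 0% RPS, as a trend over the dose, and for any difference among the diets. The comparisons share the same 5 mice on 0% RPS. Calls required a p, adjusted by Benjamini-Hochberg over all tested genes, not above 0.05, together with a 1.5-fold difference in either direction. The trend and the test of any diet had no limit on the size of the difference. None of the 8 genes was called in any of these comparisons (edgeR's quasi-likelihood test), nor with DESeq2 (Wald test, and likelihood ratio test for any diet). By edgeR, 1.04% of all genes were called with 10% RPS, 0.195% with 5% RPS, 0% with 2% RPS, 1.11% for the trend, and 0.0912% for any diet. By DESeq2 these shares were 2.46%, 1.41%, 0.027%, 4.84%, and 2.95% of the genes given an adjusted p. Without adjustment, 1 of 8 had a p under 0.05 with 10% RPS (19.5% of all genes), 0 with 5% RPS (13.3%), 0 with 2% RPS (5.77%), 2 for the trend (18.8%), and 0 for any diet (11.1%). The mice of the diets compared overlapped for all 8 genes, while 4.88%, 3.57%, and 1.09% of all genes showed no overlap with 10, 5, and 2% RPS. The median log2 fold change of the 8 genes was 0.01 with 10% RPS, against 0.00 for all tested genes, and the median absolute log2 fold change was 0.15 and 0.16.

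The intervals say how large a change could have been missed. With 10% RPS the 95% interval of the fold change lay within 1.5-fold in either direction for 6 of 8 genes, with bounds no further out than 0.735 and 1.37. Those 6 were Slc5a1, Khk, Fbp1, Pck1, Mlxipl, and Txnip. Slc2a5 and Pfkfb3 had wider intervals that passed 1.5-fold. With 2% RPS the same 6 genes lay within 1.5-fold, and with 5% RPS 5 of them did, without Pck1.

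**Figure D2:**
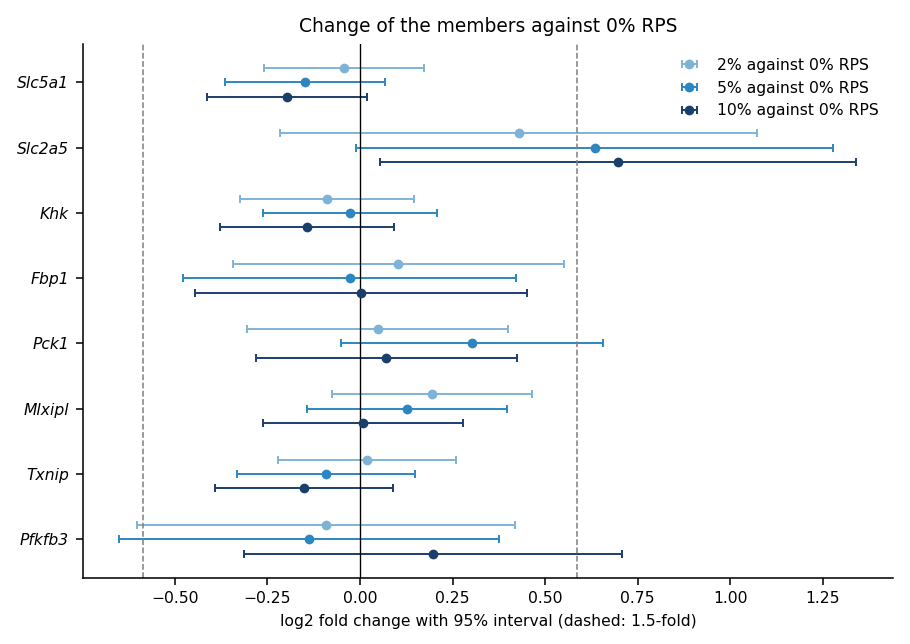
Log2 fold change of each gene against 0% RPS, with its 95% interval (x axis) for 2, 5, and 10% RPS (shades), 5 mice per diet; dashed lines mark 1.5-fold. Slc2a5 lies to the right of 0 at each dose, with an estimate of 0.70 at 10% RPS, and most other estimates lie near 0.

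Of the transporters, Slc2a5 (ENSMUSG00000028976, chr4:150196268-150228931, GRCm39) had the largest estimates of the set. The mice fed 0% RPS had 1.76, 3.03, 4.46, 2.62, and 3.67 CPM of Slc2a5, and those fed 10% RPS had 4.18, 7.82, 4.33, 4.52, and 4.28 CPM. With 2% RPS the values were 4.19, 4.52, 6.11, 1.77, and 4.31 CPM, and with 5% RPS they were 6.19, 3.80, 3.997, 2.83, and 7.30 CPM. All mice fed 10% RPS lay above 4 of the 5 mice fed 0% RPS, and the fifth exceeded 3 of the mice fed 10% RPS. The means were 3.11 ± 1.03 CPM with 0% RPS and 5.03 ± 1.57 CPM with 10% RPS (SD, n = 5 each). The log2 fold change of Slc2a5 was 0.70 with 10% RPS (SE 0.31, adjusted p = 0.223 by edgeR), 0.63 with 5% (SE 0.31, adjusted p = 0.388), and 0.43 with 2% (SE 0.31, adjusted p = 0.911). The two-sided exact permutation test of 10% against 0% RPS gave p = 0.0317, 1 of 8 such tests. Mouse 2 on 10% RPS had the highest value, and without it the log2 fold change was 0.48. Slc2a5 rested on 54 to 303 counts per mouse, and its trend, 0.06 per percent of RPS, had an adjusted p of 0.258 by edgeR. Over the 20 mice Slc2a5 was lower where the goblet cell markers were higher (Pearson r -0.65, adjusted p = 0.0444; Spearman rho -0.59, adjusted p = 0.131; permutation tests, 48 pairs of gene and marker list). The correlation with the goblet cell markers was -0.49 after the diet means were removed (adjusted p = 0.350, permutation test), and -0.61 without the 2 mice farthest from the median of the markers.

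Slc5a1 (ENSMUSG00000011034, chr5:33261563-33320214) tended the other way by a small amount. Its values were 77.3, 87.7, 84.1, 87.6, and 75.3 CPM with 0% RPS and 69.2, 78.7, 65.0, 78.4, and 68.0 CPM with 10% RPS. With 2% RPS they were 98.4, 85.6, 70.4, 71.3, and 74.2 CPM, and with 5% RPS they were 87.4, 78.1, 72.1, 58.7, and 75.3 CPM. The upper mice on 10% RPS lay among the lower mice on 0% RPS. With 10% RPS the log2 fold change of Slc5a1 was -0.20 (SE 0.10, adjusted p = 0.301 by edgeR; two-sided exact permutation p = 0.0476), and the trend had an adjusted p of 0.245. With 5% RPS it was -0.15 and with 2% RPS -0.04. Across the 20 mice Slc5a1 was lower where the smooth muscle markers were higher (Pearson r -0.71, adjusted p = 0.0216; Spearman rho -0.65, adjusted p = 0.131; permutation tests). This correlation was -0.65 after the diet means were removed (adjusted p = 0.0970, permutation test) and -0.57 without the 2 mice farthest from the median. With the smooth muscle markers as a covariate, the log2 fold change of Slc5a1 with 10% RPS was 0.01.

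**Figure D3:**
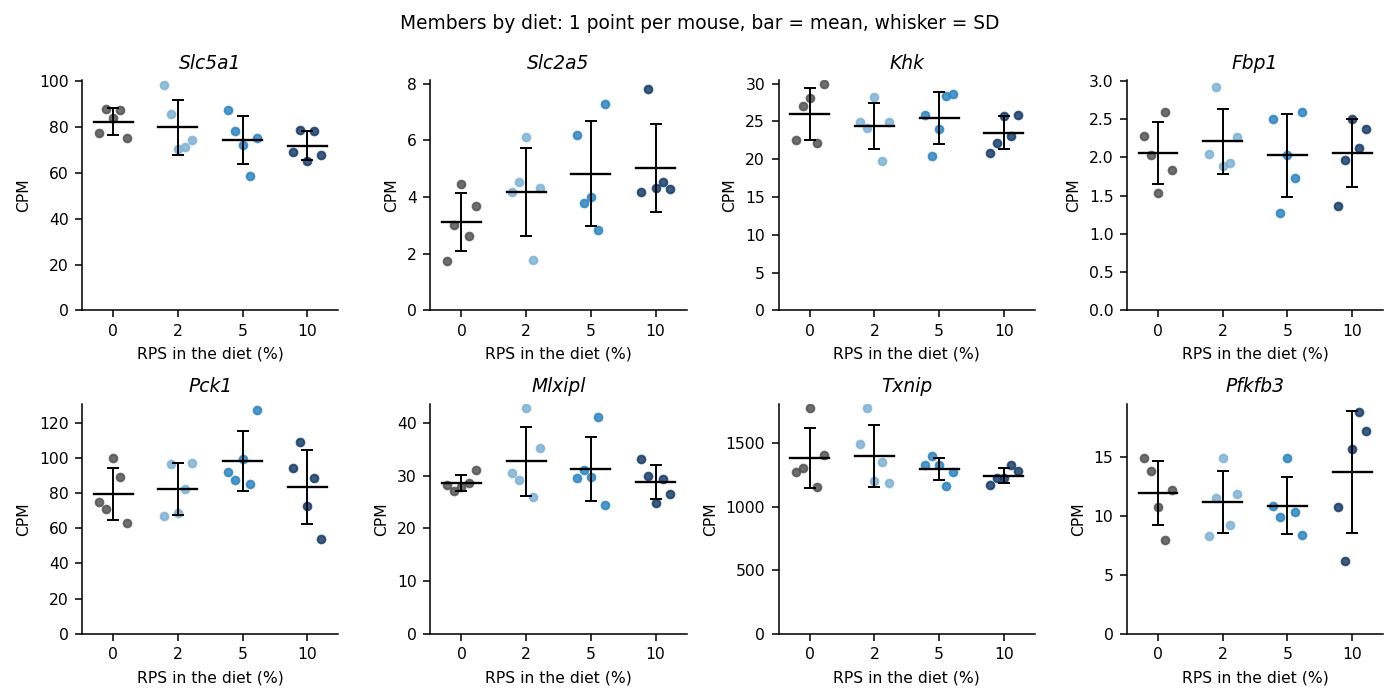
CPM of the 8 genes (y axis, from 0) by percentage of RPS, with 1 point per mouse, the mean as a bar, and the SD as a whisker. The mice of the diets overlap in every panel, and the 5 Slc2a5 values with 10% RPS include 1 mouse at 7.82 CPM above 4 near 4.3 CPM.

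The first step of fructose breakdown differed little between diets. Khk (ENSMUSG00000029162, chr5:31078775-31101479), the ketohexokinase, had 25.9 ± 3.46 CPM with 0% RPS and 24.4 ± 3.02, 25.5 ± 3.41, and 23.5 ± 2.22 CPM with 2, 5, and 10% RPS (SD, n = 5 each). With 10% RPS the log2 fold change of Khk was -0.14 (SE 0.11, adjusted p = 0.510 by edgeR), a fold change of 0.906 with a 95% interval of 0.770 to 1.07. Khk shares 2003 bases of exon with Cgref1 on the opposite strand. Whether the counting used strand was not given in the sources used here, so reads of the pair may not have been kept apart, and Cgref1 itself had 36.9 to 55.3 CPM.

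The other genes of fructose and polyol metabolism did not pass the test either. Of the 5 tested, 0 were called with 10% RPS, 4 had higher estimates, and 1 had an unadjusted p under 0.05, where 1.04% of all genes were called and 19.5% had such a p, so the count is near that of all genes. The gene was Sord, which turns sorbitol into fructose, with 60.8 ± 3.13 CPM with 0% RPS and 70.6 ± 5.10 CPM with 10% RPS (SD, n = 5 each; log2 fold change 0.22, adjusted p = 0.223 by edgeR). Tkfc, which phosphorylates glyceraldehyde, had a log2 fold change of 0.14 (adjusted p = 0.411 by edgeR).

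Of the glucose-producing enzymes, Pck1 (ENSMUSG00000027513, chr2:172994744-173001066), which makes phosphoenolpyruvate from oxaloacetate, overlapped on all diets. The range of Pck1 was 63.2 to 99.9 CPM with 0% RPS, 66.8 to 97.1 with 2%, 85.2 to 127 with 5%, and 53.9 to 109 with 10%. The 5% diet had the highest estimate, a log2 fold change of 0.30 (SE 0.17, adjusted p = 0.468 by edgeR), and with 10% RPS it was 0.07 (SE 0.17, adjusted p = 0.860). Adipocytes also express Pck1, and the 9 adipocyte markers together ranged from 78.5 to 557 CPM over the mice on 10 and 0% RPS, with a correlation of 0.40 with Pck1 over the 20 mice (Pearson, adjusted p = 0.417; Spearman rho 0.29, adjusted p = 0.564; permutation tests) and of 0.44 without the 2 mice farthest from the median of the markers.

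Fbp1 (ENSMUSG00000069805, chr13:63012567-63036263), fructose-1,6-bisphosphatase, had 32 to 97 counts per mouse, the fewest of the set. Its mean was 2.05 ± 0.402 CPM with 0% RPS and 2.06 ± 0.443 CPM with 10% RPS (SD, n = 5 each), and the log2 fold change was 0.00 (SE 0.22, adjusted p = 0.996 by edgeR). Of the 5 other gluconeogenesis genes tested, 0 were called and 1 had an unadjusted p under 0.05, a share near the 19.5% of all genes. This was Fbp2, which was lower in every mouse fed 10% RPS (134 to 173 CPM) than in every mouse fed 0% RPS (174 to 214 CPM), with a log2 fold change of -0.32 that just missed the threshold on the adjusted p (0.0520 by edgeR) and was below 1.5-fold. No overlap was seen for 4.88% of all genes. Pcx and Pck2, which feed the same route, had log2 fold changes of 0.03 and 0.02. G6pc3, the widely expressed glucose-6-phosphatase, had -0.07 (adjusted p = 0.665 by edgeR).

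Of the sugar-sensing genes, Mlxipl (ENSMUSG00000005373, chr5:135118744-135168615) had nearly equal means with 0% and 10% RPS, 28.6 ± 1.55 and 28.8 ± 3.27 CPM, and 32.7 ± 6.51 and 31.2 ± 6.07 CPM with 2 and 5% RPS (SD, n = 5 each). The 5 mice on 0% RPS were within 27.0 to 31.2 CPM, and the mice on 2% RPS spread from 26.0 to 42.7 CPM. For Mlxipl the log2 fold change was 0.01 with 10% RPS (SE 0.13, adjusted p = 0.984 by edgeR) and 0.20 with 2% RPS (SE 0.13, adjusted p = 0.903).

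Txnip (ENSMUSG00000038393, chr3:96465267-96469201) is the transcript that ChREBP and MondoA raise when sugar phosphates accumulate. The mice had 1277, 1304, 1780, 1152, and 1406 CPM of Txnip with 0% RPS and 1173, 1229, 1224, 1326, and 1279 CPM with 10% RPS. The mice on 10% RPS lay within the range of those on 0% RPS. For Txnip the log2 fold change was -0.15 with 10% RPS (SE 0.12, adjusted p = 0.491 by edgeR), -0.09 with 5%, and 0.02 with 2%. The spread among mice was 17.3% of the mean (coefficient of variation) with 0% RPS and 4.68% with 10% RPS, and the difference in spread was not tested. Txnip shares 928 bases of exon with the lncRNA Gm15441 and Mlxipl 235 with Gm43500, both on the opposite strand and not analysed here.

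In the wider list of MondoA and ChREBP factors and alpha-arrestins, the family of Txnip, 0 of 6 other genes were called with 10% RPS, with 1 higher and 1 lower at an unadjusted p under 0.05, where 1.04% of all genes were called and 19.5% had such a p. Mlxip, which encodes MondoA, had a log2 fold change of 0.31 (adjusted p = 0.107 by edgeR), and Mlx, the partner of both factors, had -0.22 (adjusted p = 0.242). Arrdc4, another textbook target, had 0.16 (adjusted p = 0.515).

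Pfkfb3 (ENSMUSG00000026773, chr2:11476244-11558888) was the most scattered of the set with 10% RPS. The mice on 0% RPS had 14.9, 13.8, 10.7, 7.96, and 12.2 CPM of Pfkfb3, and those on 10% RPS had 10.7, 6.17, 15.6, 18.8, and 17.1 CPM. Both the lowest and the highest of all 20 mice were fed 10% RPS. The log2 fold change of Pfkfb3 was 0.20 with 10% RPS (SE 0.24, adjusted p = 0.700 by edgeR), -0.14 with 5%, and -0.09 with 2%. The correlation of Pfkfb3 with the B cell markers over the 20 mice did not pass an adjusted p of 0.05 (Pearson r 0.58, adjusted p = 0.0862; Spearman rho 0.58, adjusted p = 0.131; permutation tests). It was 0.59 after the diet means were removed (adjusted p = 0.140, permutation test) and 0.69 without the 2 mice farthest from the median of the markers. With the B cell markers as a covariate the log2 fold change of Pfkfb3 with 10% RPS was -0.15.

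Among the 8 genes themselves, 28 pairs were compared over the 20 mice, and no correlation passed an adjusted p of 0.05 (permutation tests). By Pearson r the strongest was between Slc5a1 and Txnip, at 0.50 (p = 0.0256, adjusted p = 0.432; Spearman rho 0.42, p = 0.0648, adjusted p = 0.578; permutation tests), which was 0.42 after the diet means were removed and 0.40 without the 2 mice farthest from the median of Slc5a1. Pck1 and Pfkfb3 had a Pearson r of -0.49 (p = 0.0309, adjusted p = 0.432; Spearman rho -0.40, adjusted p = 0.578; permutation tests), -0.49 after the diet means were removed, and -0.31 without the 2 farthest mice. Slc2a5 and Khk, the entry and the first step of fructose breakdown, had a Pearson r of 0.35 (adjusted p = 0.762; Spearman rho 0.26, adjusted p = 0.955; permutation tests), 0.55 after the diet means were removed (p = 0.0128, adjusted p = 0.335, permutation test), and 0.06 without the 2 mice farthest from the median of Slc2a5. By Spearman the strongest pair was Fbp1 and Mlxipl (rho -0.54, p = 0.0150, adjusted p = 0.421; Pearson r -0.39, adjusted p = 0.762; permutation tests), with a Pearson r of -0.47 after the diet means were removed and -0.40 without the 2 mice farthest from the median of Fbp1.

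The genes most like each of the 8 were named by the highest Pearson r of log2 CPM over the 20 mice among tested genes with a mean of at least 1 CPM. For Slc5a1 they were Ugt2b36 (0.87), Etfdh (0.86), and Rap2a (0.84), for Slc2a5 Rassf10 (0.86), Cry2 (0.84), and Btnl1 (0.82), and for Khk Wwox (0.88), Dcaf6 (0.79), and Gas6 (0.75). For Fbp1 they were Aff2 (0.69), Eif2s3y (0.67), and Zfpm2 (0.64), and for Pck1 they included Slc9a2 (0.78) and Zfp697 (0.78). For Mlxipl they were Eppk1 (0.84), Kmt2b (0.79), and Ylpm1 (0.79), for Txnip Fmo2 (0.83), Plscr4 (0.75), and Klf11 (0.72), and for Pfkfb3 Il34 (0.85), Ltbp2 (0.84), and Gpr137b (0.83). Eif2s3y is a sex-linked transcript with a mean of 74.1 CPM, and a relation of Fbp1 to sex was not tested. None of the 8 was among the 3 genes most like another. These values are the largest of many and are given as a description.

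The genes around the set were described from 11 lists that hold 106 further genes, of which 96 were tested. The lists were chosen with earlier results of these data known, so their counts beside those of all genes are a description and not a test. With 10% RPS, 4 of the 96 were called, all of them lower, where 0.495% of all genes were called lower. Without adjustment, 35 were lower and 5 higher at a p under 0.05, and 9.75% of all genes were lower at that p. The median log2 fold change of the 96 genes was -0.12, against 0.00 for all tested genes. The mice of the 2 diets did not overlap for 14 of the 96, where 4.88% of all genes showed no overlap. For the trend the same 4 genes were called, all falling, where 1.11% of all genes were called in either direction. With 5% RPS 1 gene was called (0.195% of all genes). With 2% RPS 0 were called, and 10 genes were lower and 0 higher at an unadjusted p under 0.05 (5.77% of all genes in either direction).

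**Figure D4:**
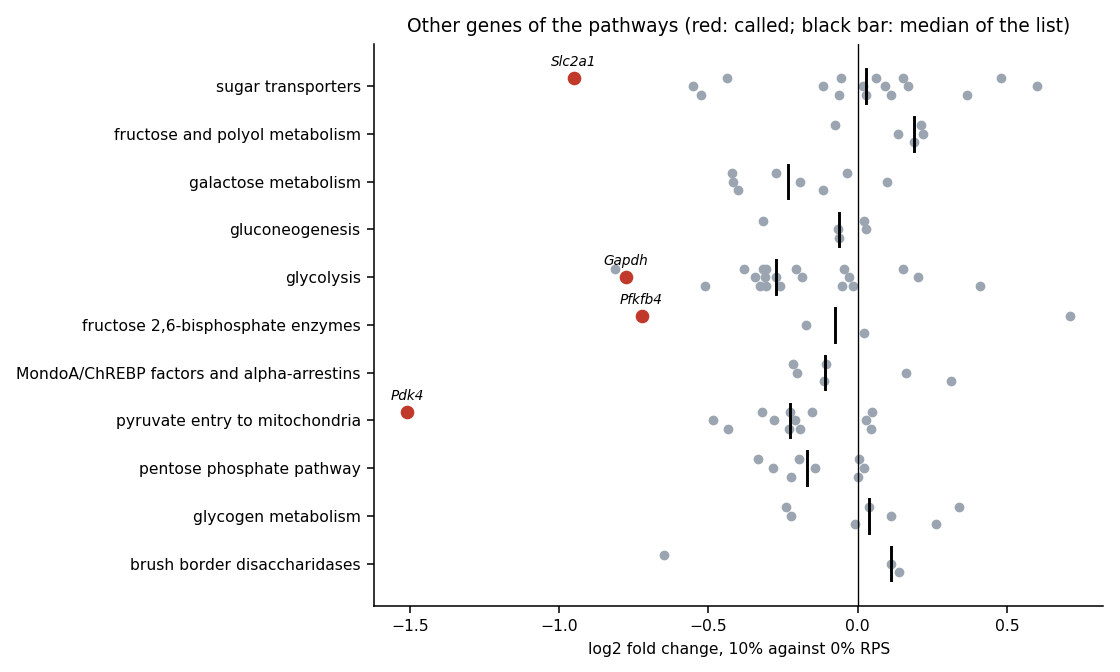
Log2 fold change with 10% against 0% RPS (x axis) of the 96 tested genes of 11 pathway lists, with 1 point per gene and the median of each list as a bar. The 4 called genes, Slc2a1, Gapdh, Pfkfb4, and Pdk4, lie to the left, and the glycolysis genes have a median of -0.27.

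The transcript of the glucose transporter GLUT1 was called lower with 5 and 10% RPS. The call with 5% RPS held in 3 of 10 fits that each left out 1 mouse (adjusted p up to 0.121 by edgeR), and both calls were lost with the smooth muscle markers as a covariate, with log2 fold changes of Slc2a1 of -0.65 with 5% RPS (adjusted p = 0.590) and -0.87 with 10% RPS (adjusted p = 0.101). The mice had 345, 303, 371, 330, and 418 CPM of Slc2a1 with 0% RPS and 148, 181, 182, 230, and 174 CPM with 10% RPS. With 2% RPS they had 263, 269, 270.4, 309, and 192 CPM and with 5% RPS 229, 235, 193, 224, and 170 CPM. Every mouse fed 5 or 10% RPS lay below every mouse fed 0% RPS. The log2 fold change of Slc2a1 was -0.95 with 10% RPS (SE 0.13, adjusted p = 0.00289 by edgeR), -0.75 with 5% (SE 0.13, adjusted p = 0.0308), and -0.44 with 2% (SE 0.13, adjusted p = 0.712). Slc2a1 was also called for the trend, at -0.09 per percent of RPS (adjusted p = 0.00752 by edgeR), and in the test of any diet. The trend call was lost with the smooth muscle markers as a covariate (slope -0.07, adjusted p = 0.0997 by edgeR) and without mouse 1 on 10% RPS (slope -0.08, adjusted p = 0.0552), and held in the other 19 fits that each left out 1 mouse. Of the 17 further sugar transporters tested, Slc2a1 was the only one called, where 1.04% of all genes were called with 10% RPS, 0.195% with 5% RPS, and 1.11% for the trend. Slc45a3, a member of another transporter family, had -0.53 (adjusted p = 0.0546 by edgeR).

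Pfkfb4 encodes another enzyme of fructose 2,6-bisphosphate, the same step as Pfkfb3. The mice had 33.9, 31.6, 32.5, 29.98, and 32.6 CPM of Pfkfb4 with 0% RPS and 14.9, 17.9, 15.5, 25.6, and 23.5 CPM with 10% RPS, without overlap. Called with 10% RPS, Pfkfb4 kept this call in 3 of 10 fits that each left out 1 mouse, and in no fit with a marker covariate. Its log2 fold change with 10% RPS was -0.72 (SE 0.16, adjusted p = 0.0289 by edgeR). Pfkfb2, a rare transcript here, had 0.71 (adjusted p = 0.147 by edgeR).

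In glycolysis, 1 of 21 tested genes was called with 10% RPS and 11 had lower estimates at an unadjusted p under 0.05, with 0 higher, where 0.495% of all genes were called lower and 9.75% were lower at that p. The called gene was Gapdh, with 16.8 ± 3.42 CPM with 0% RPS and 9.79 ± 1.90 CPM with 10% RPS (SD, n = 5 each; log2 fold change -0.78, SE 0.16, adjusted p = 0.0251 by edgeR). Gapdh has many near-identical pseudogenes, how the counting handled reads with more than 1 place to map was not given in the sources used here, and its 9.80 CPM per kb stood against 728 for Aldoa, so this value is uncertain. Gpi1, which interconverts glucose 6-phosphate and fructose 6-phosphate, had -0.51 (adjusted p = 0.0539 by edgeR).

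At the entry of pyruvate into mitochondria, 1 of 13 tested genes was called with 10% RPS, and 8 were lower and 0 higher at an unadjusted p under 0.05, where 0.495% of all genes were called lower and 9.75% were lower at that p. The called gene, Pdk4, a kinase that shuts off pyruvate dehydrogenase and is known to rise with fasting and fatty acids, had 142, 119, 182, 112, and 97.5 CPM with 0% RPS and 39.4, 49.5, 43.3, 66.2, and 31.2 CPM with 10% RPS. Each mouse on 10% RPS lay below each on 0% RPS. The call of Pdk4 held in 2 of 10 fits that each left out 1 mouse, and in no fit with a marker covariate. For Pdk4 the log2 fold change was -1.51 with 10% RPS (SE 0.34, adjusted p = 0.0316 by edgeR) and -1.38 with 5% (SE 0.33, adjusted p = 0.0761). Pdk3, a related kinase, had -0.43 and passed on the adjusted p (0.0251 by edgeR) but not on the fold change.

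**Figure D5:**
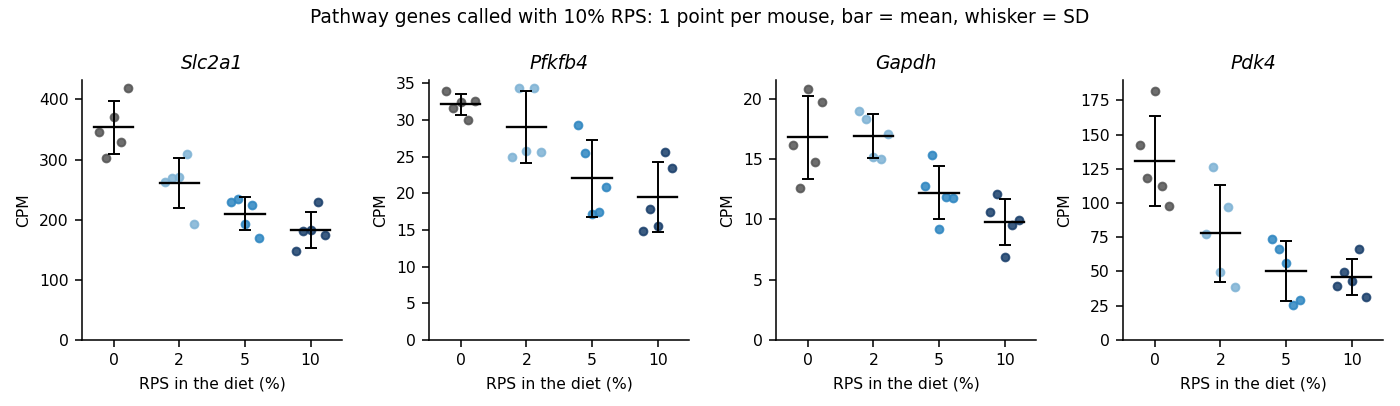
CPM (y axis, from 0) of Slc2a1, Pfkfb4, Gapdh, and Pdk4 by percentage of RPS, with 1 point per mouse, the mean as a bar, and the SD as a whisker. The mice fed 10% RPS lie below all mice fed 0% RPS in each panel, for Slc2a1 at 148 to 230 against 303 to 418 CPM.

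Most of these calls changed when single mice were left out or markers of the muscle layer entered the fit. Slc2a1 was called with 10% RPS in 10 of 10 fits that each left out 1 mouse, and the log2 fold changes stayed near those of the full fit, at -1.04 to -0.87 for Slc2a1, -0.87 to -0.67 for Gapdh, -0.84 to -0.64 for Pfkfb4, and -1.67 to -1.36 for Pdk4. Gapdh was called in 6 and lost its call without mouse 3 or 5 on 0% RPS or mouse 1 or 3 on 10% RPS (adjusted p up to 0.0819 by edgeR). In these fits Pfkfb4 was called only without mouse 2 on 0% RPS or mouse 4 or 5 on 10% RPS, and Pdk4 only without the first or the second of these, with adjusted p of up to 0.101 for both without other mice. With 5% RPS Slc2a1 was called only without mouse 2 or 5 on 0% RPS or mouse 1 on 5% RPS, and its log2 fold change ranged from -0.80 to -0.68. Of 20 fits that each left out 1 mouse, the trend call held in 19 for Slc2a1, 18 for Gapdh, 14 for Pfkfb4, and 6 for Pdk4. The adjusted p for the trend of Pdk4 reached 0.124 in these fits (edgeR). With the smooth muscle markers as a covariate, 0 of the 96 genes were called with 10% RPS. The log2 fold change was then -0.78 for Gapdh (adjusted p = 0.112 by edgeR), -0.45 for Pfkfb4 (adjusted p = 0.171), and -0.94 for Pdk4 (adjusted p = 0.193). The sum of these markers had medians of 3456 CPM with 0% RPS and 6333.5 CPM with 10% RPS, so diet and markers cannot be fully told apart. How many of all genes were called in the fits with a marker covariate is not reported here. With the B cell or the adipocyte markers as a covariate, Slc2a1 alone remained called with 10% RPS, and 2 genes remained called lower for the trend. The log2 fold changes with 10% RPS and the B cell and the adipocyte markers were -0.53 and -0.79 for Gapdh, -0.68 and -0.66 for Pfkfb4, and -1.34 and -1.36 for Pdk4. Gapdh also lost its call when only the mice on 0 and 10% RPS were fitted (adjusted p = 0.0557 by edgeR), with a log2 fold change of -0.77, and Pdk4 lost that for the trend when no filter was applied (adjusted p = 0.0526), with a slope of -0.14 per percent of RPS as in the fit with the filter.

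In the remaining lists 0 genes were called with 10% RPS. At an unadjusted p under 0.05, 9.75% of all genes were lower and 19.5% were past it in either direction. In galactose metabolism 5 of 8 genes were lower and 0 higher at that p, among them Pgm1 (log2 fold change -0.27, adjusted p = 0.0477 by edgeR, below 1.5-fold) and Pgm2 (-0.40, adjusted p = 0.0686). In the pentose phosphate pathway 3 of 8 were lower, with Pgd at -0.33 (adjusted p = 0.0670 by edgeR) and Tkt at -0.28 (adjusted p = 0.156). In glycogen metabolism 1 of 7 was higher and 2 were lower at that p, with Pygb at 0.26 (adjusted p = 0.108 by edgeR) and Gbe1 at -0.24 (adjusted p = 0.234). Of the brush border disaccharidases, which split sucrose and starch fragments, Mgam was well expressed at 151 ± 13.2 CPM with 0% RPS and 166 ± 26.1 CPM with 10% RPS (SD, n = 5 each; log2 fold change 0.14, adjusted p = 0.514 by edgeR), whereas Sis had 1 to 28 counts per mouse and a log2 fold change of -0.65 (adjusted p = 0.340).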

How the data were processed

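RNA from the cecum of 20 mice, 5 per diet, was measured by RNASeq of stranded poly(A) libraries with single-end reads. Per the methods and labels, the authors trimmed reads by quality and mapped them to GRCm39 with CLC software, and the deposited values are raw counts per gene and mouse. The annotation release, the strand setting, and the handling of multi-mapping reads were not given in the sources used here, which matters for overlapping genes and for genes with pseudogenes. Groups came from the treatment in the sample labels, and mice are numbered 1 to 5 in accession order within a diet. Nothing in the labels says which mice shared a cage or litter.

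Gene names, positions, and canonical transcript lengths came from GENCODE M39 on GRCm39, in which 19827 of 19887 identifiers were found. Counts were filtered with filterByExpr (minimum count 10, minimum total 15), scaled by TMM (factors 0.916 to 1.07), and fitted with edgeR's quasi-likelihood model over all 20 mice (R 4.3.3, edgeR 4.0.16, limma 3.58.1), with robust estimation, and all p-values are two-sided. The standard error is the log2 fold change divided by the square root of the F statistic. DESeq2 1.42.0, which the authors used, served as an alternative. Log2 CPM used a prior count of 2. The exact permutation tests covered all 252 ways to assign 10 mice (lowest possible p 0.00794). Correlations used 100000 permutations with Benjamini-Hochberg adjustment over 28 pairs of genes or 48 pairs of gene and marker list (Python 3.11.15, numpy 2.4.6, scipy 1.17.1). The total count per mouse was 14967798 to 42687283, tested genes had a median of 514.1 counts, and 3 counts were 0.190 CPM in the smallest library, a limit that covers counting error only.

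The genes of the set and the pathway and marker lists were chosen with earlier results of these data known. Named outside the set are list genes that were called, the 2 genes of each list with the lowest p with 10% RPS, and the 3 genes most like each gene. Aldoa, G6pc1, Pcx, Pck2, and Arrdc4 are named for their roles. Some genes that the rule would name are not reported here. The alternatives were DESeq2's size factors, upper quartile factors, DESeq2's Wald test, no filter, at least 10 counts in every mouse, no robust estimation, only the 2 diets compared, calls without the limit on fold change, dose as a rank, each mouse left out, and, added after the data were seen, the smooth muscle, B cell, or adipocyte markers as a covariate.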

Additional observations from a re-analysis of the deposited data

Results flagged for a closer look

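Of 32 combinations of a gene and a diet, 1 held a mouse that stood apart from the other 4 by Dixon's ratio, and chance gives about 1 in 20. Mouse 2 on 10% RPS had 7.82 CPM of Slc2a5, against a median of 4.33 CPM on that diet, with a ratio of 0.875 (critical value 0.71).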

How the results depend on the processing

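None of the 8 genes was called under any alternative in any comparison, including each mouse left out. Of their fold changes and the slopes of Slc5a1 and Slc2a5, the estimates of Slc2a5 kept their sign throughout. Those that changed sign included the log2 fold changes with 10% RPS of Slc5a1 (-0.20) and Pfkfb3 (0.20), the largest of the set after Slc2a5. The log2 fold change of Fbp1 with 10% RPS was -0.0013 with DESeq2's size factors and -0.0036 with DESeq2's Wald test. With the smooth muscle markers as a covariate the log2 fold change of Slc5a1 was 0.059, 0.094, and 0.0095 with 2, 5, and 10% RPS, that of Pck1 was -0.0014 with 2% and -0.019 with 10%, and that of Mlxipl was -0.047 with 5% and -0.13 with 10%. With 10% RPS and the B cell markers as a covariate, Mlxipl had -0.073 and Pfkfb3 -0.15, and with the adipocyte markers Mlxipl had -0.022. The cause of these changes was not tested.

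With each mouse left out, the log2 fold change with 10% RPS ranged from -0.084 to 0.12 for Fbp1, from -0.043 to 0.20 for Pck1, and from -0.048 to 0.062 for Mlxipl. With 5% RPS it ranged from -0.077 to 0.045 for Khk, from -0.13 to 0.11 for Fbp1, and from -0.15 to 0.015 for Txnip. With 2% RPS it ranged from -0.011 to 0.20 for Fbp1, from -0.017 to 0.14 for Pck1, from -0.075 to 0.13 for Txnip, and from -0.22 to 0.0011 for Pfkfb3. With 4 mice in a diet, 0 to 1 of the 8 exact permutation tests had a p within 0.05, against 2 with all mice.

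Of the 96 pathway genes, 4 were called lower with 10% RPS, 1 to 6 with each mouse left out (1 without mouse 3 or 5 on 0% RPS or mouse 1 or 3 on 10% RPS, 6 without mouse 2 on 0% RPS), 0 with the smooth muscle markers as a covariate, and 1 with either the B cell or the adipocyte markers. With 5% RPS 1 was called lower, 0 to 3 with each mouse left out, 2 with DESeq2's Wald test, and 0 with the smooth muscle markers, where the log2 fold change of Slc2a1 was -0.65. For the trend 4 were called lower, and 0 when mouse 1 on 10% RPS was left out, the lowest of those fits, up to 12 when mouse 3 on 2% RPS was. The count was 14 with the rank of the dose, 14 with DESeq2's Wald test, 0 with the smooth muscle markers, and 2 with either of the others. Genes called as rising numbered 0 to 2 when each mouse was left out, with 2 without mouse 4 on 10% RPS. DESeq2 called 4.84% of all genes given an adjusted p for the trend and 1.41% with 5% RPS, against 1.11% and 0.195% by edgeR. The shares of all genes called under the other alternatives are not reported here.

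The estimates with the fewest counts, Fbp1 and Slc2a5, had the widest intervals besides Pfkfb3. No paired analysis was possible because the labels give mice of different diets different numbers.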
